A study of Homo sapiens with 4 samples.

Results

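The activating transcription factor ATF4 and 9 genes tied to it, regulators induced by stress and targets that are secreted or sit in membranes, were examined in Huh-7 cells with and without transforming growth factor beta (TGF-beta). The 10 genes are ATF4, ATF5, DDIT3, NUPR1, TRIB3, DDIT4, CHAC1, PPP1R15A, STC2 and VLDLR. They were chosen by symbol from a group of genes proposed when the TGF-beta differences of these arrays, among them those of NUPR1, DDIT3 and STC2, were already known. Their values in that comparison are therefore a description, and no test is read from them. All 10 were measured, on 14 of the 22215 probe sets of the array. A probe set is a group of short probes for 1 transcript. They are 10 of the 12165 genes with a probe set that names a single gene.

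Huh-7 is an established human hepatocellular carcinoma line. The untreated group had 2 arrays of cells in medium with 10% serum, and the TGF-beta group had 2 arrays of cells grown in the same way and harvested 48 h after the cytokine was given, at a dose that the labels leave out. They also do not say whether the 2 arrays of a group come from separate cultures, so the spread between them may be technical. All 8 measured hepatocyte markers, ALB and AFP among them, lay above the median intensity on every array. Median intensities were 50.1 to 51.0 on the 4 arrays, and lower quartiles were 28.8 to 29.2. Probe sets near these values have little room to fall.

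ATF4 is the transcription factor of the integrated stress response. Kinases that sense amino acid shortage, misfolded protein in the endoplasmic reticulum, viral RNA or lack of heme phosphorylate the translation factor eIF2, which slows protein synthesis in general but lets ribosomes reach the coding region of the ATF4 mRNA. ATF4 then pairs with C/EBP proteins and binds C/EBP-ATF response elements in genes for amino acid supply, for further stress factors such as DDIT3, and for feedback inhibitors such as TRIB3 and PPP1R15A. Because ATF4 is controlled mainly at translation, its mRNA level does not give the amount of the protein.

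The core of the C/EBP-ATF response element was searched as TGATGNAA on both strands, that is also as TTNCATCA, in RefSeq promoter windows of 250 bases before to 50 after each start (GRCh38.p14). Of the 10 genes, 9 matched an entry, all but NUPR1, and 1 of the 9, CHAC1, had a match. The match in CHAC1 lay at positions -209 to -202 from the start, on the opposite strand. The sequence upstream of CHAC1 (chr15:40953221-40953470, plus strand) is printed because it is the single match among the 9 genes, with the matching letters in capitals.

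CHAC1: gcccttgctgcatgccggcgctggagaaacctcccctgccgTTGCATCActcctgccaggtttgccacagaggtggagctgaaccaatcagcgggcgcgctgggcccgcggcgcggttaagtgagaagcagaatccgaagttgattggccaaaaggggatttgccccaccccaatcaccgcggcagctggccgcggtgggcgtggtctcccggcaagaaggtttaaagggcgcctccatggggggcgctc

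Stretches of 48 bases around the match in 4 other ATF4 pathway genes are shown for comparison of the letters. They come from ASNS (asparagine synthetase; chr7:97872449-97872496, minus strand), CEBPG (a C/EBP partner of ATF4; chr19:33374051-33374098, plus strand), ATF3 (a stress-induced relative of ATF4; chr1:212565196-212565243, plus strand) and AARS1 (alanyl-tRNA synthetase; chr16:70289666-70289713, minus strand). These 4 were picked after the search, and each is printed along its own gene's strand with the match in capitals.

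ASNS: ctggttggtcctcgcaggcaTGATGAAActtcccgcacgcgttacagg

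CEBPG: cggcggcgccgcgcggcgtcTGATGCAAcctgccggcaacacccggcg

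ATF3: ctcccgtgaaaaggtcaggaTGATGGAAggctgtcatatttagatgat

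AARS1: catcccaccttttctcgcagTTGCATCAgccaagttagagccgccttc

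The matches lay at positions -68 to -61 from the start in ASNS, -42 to -35 in CEBPG, -191 to -184 in ATF3 and -187 to -180 in AARS1. ASNS, CEBPG and ATF3 matched on the strand printed, and AARS1, like CHAC1, on the opposite one. Of all 35116 windows, 3.62% held the motif. A match is a run of letters and not a measured binding site, and no match says only that the letters are not in this window.

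Of the 10 genes, 8 had a lower mean after TGF-beta and 2 a higher one, with a median log2 difference of -0.445 against -0.006 over all genes. A log2 difference here is the mean log2 intensity of the TGF-beta arrays minus that of the untreated arrays. A gene is called when its adjusted p in a limma fit over all genes is under 0.05. Each SE of a log2 difference comes from this fit, which pulls a gene's spread toward that of all genes. Where the arrays of a group differ widely, this SE is smaller than the gene's own arrays would give. NUPR1, STC2 and DDIT3 were called lower and 0 of the 10 were called higher, beside 0.567% of all genes called lower and 0.658% called higher. Since the genes were proposed from this comparison, nothing is read from that count. In 6 of the 10 genes both TGF-beta arrays lay below both untreated arrays, in 2 both lay above, and in 2 the groups overlapped. Of all genes, 25.9% lay below and 23.3% above in this sense.

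**Figure D1:**
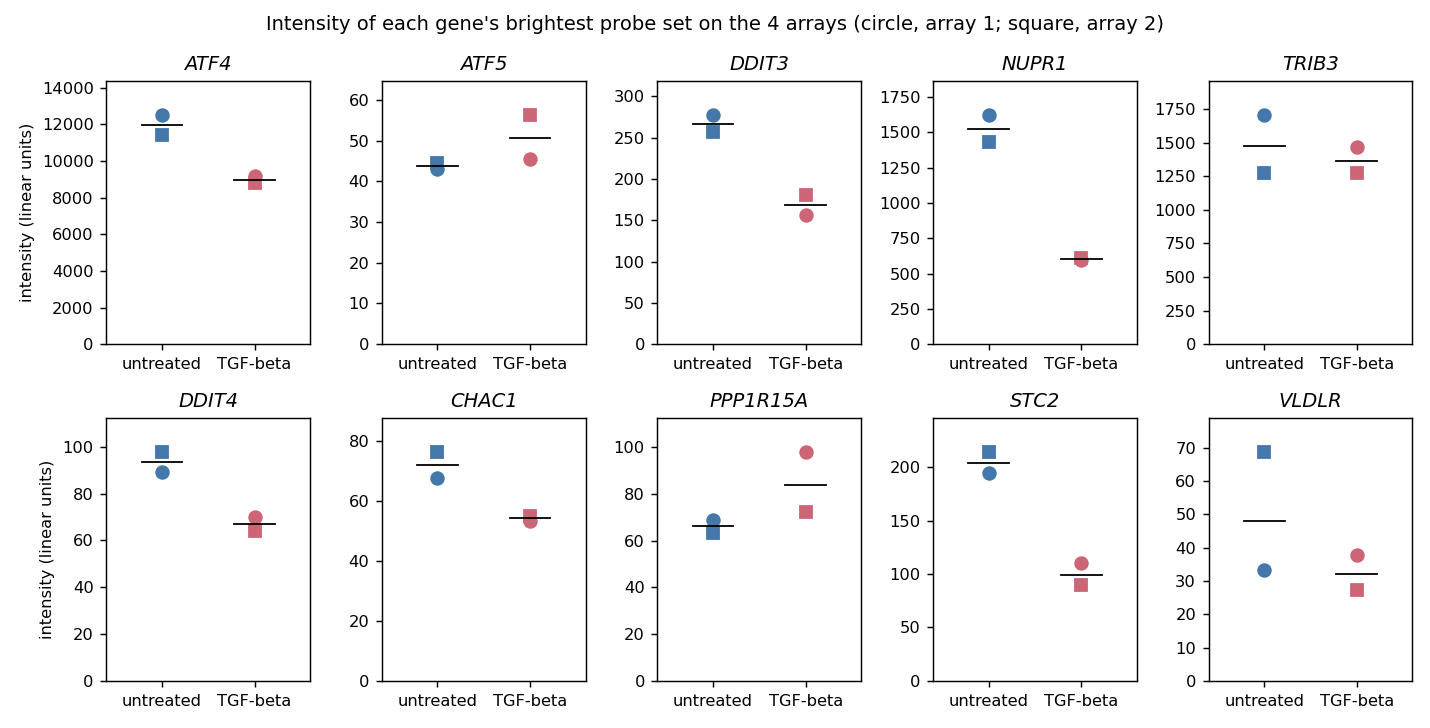
Intensity on a linear axis from 0 of the brightest probe set of each of the 10 genes, with circles for array 1, squares for array 2 and a line at each group's geometric mean. The groups lie apart in NUPR1, where the TGF-beta arrays are at 597 and 614 and the untreated arrays at 1430 and 1621, and overlap in TRIB3 and VLDLR.

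Of the transcription factors, ATF4 itself had intensities of 12496 and 11433 on the untreated arrays and 9192 and 8782 on the TGF-beta arrays. The groups did not overlap, and the gap between them, 0.31 on the log2 scale, was wider than the 0.13 and 0.07 between arrays of one group. Its level after TGF-beta was 75.2% of that in untreated cells, a log2 difference of -0.41 ± 0.11 (SE, n = 2 per group), which was not called. As with all these values from bulk RNA, a lower level in every cell and a lower level in some of the cells cannot be told apart.

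NUPR1 is a small stress-induced protein of the nucleus that acts in transcription and is itself induced through ATF4. Untreated arrays gave intensities of 1621 and 1430, and TGF-beta arrays 597 and 614. Both TGF-beta values lay below the untreated ones, with a gap of 1.22 on the log2 scale beside 0.18 and 0.04 within the groups. Mean log2 intensities were 10.57 ± 0.13 and 9.24 ± 0.03 (SD, n = 2 each), a 2.51-fold difference. Of the 12165 genes, 2 had a more negative log2 difference.

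DDIT3, also known as CHOP, is a C/EBP-type transcription factor that promotes cell death under lasting endoplasmic reticulum stress. Its untreated arrays stood at 277 and 257 and its TGF-beta arrays at 157 and 180. The groups did not overlap, and the gap of 0.52 was wider than the 0.11 and 0.19 within them. DDIT3 stood at 62.9% of its untreated level (log2 difference -0.67 ± 0.12, SE, n = 2 per group), and 81 genes had a more negative value. The DDIT3 call lay close to the threshold and was lost in 6 of 12 alternatives, including quantile normalization and leaving out untreated array 1 or either TGF-beta array.

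ATF5, a relative of ATF4 that is under similar translational control, was dim, with all 3 probe sets near or below the array median. Its brightest probe set gave 43.1 and 44.6 on untreated arrays, against 45.5 and 56.2 on TGF-beta arrays. The other two probe sets ran from 26.2 to 32.6 in untreated cells and from 30.5 to 37.7 after TGF-beta. On all 3 the TGF-beta arrays lay above the untreated ones, by gaps of 0.03, 0.13 and 0.15 on the log2 scale. The log2 differences were 0.21 ± 0.13, 0.26 ± 0.11 and 0.22 ± 0.11 (SE, n = 2 per group), none of them called. Without TGF-beta array 2 the value of the brightest probe set was 0.05, and without TGF-beta array 1 it was 0.36.

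Among the inhibitors, TRIB3, a pseudokinase that binds ATF4 and DDIT3 and restrains them, overlapped between groups. The untreated values were 1704 and 1274, and the TGF-beta values 1465 and 1274. The untreated arrays differed from each other by 0.42 on the log2 scale, more than the difference between groups of -0.11 ± 0.16 (SE, n = 2 per group). The value turned to 0.10 without untreated array 1 and was -0.32 without untreated array 2, so its sign depends on the array. TRIB3 is also a known target of ATF4 and DDIT3. The 95% interval of its log2 difference in the limma fit ran from -0.48 to 0.26, so a fall or a smaller rise within that range was not excluded.

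PPP1R15A, also known as GADD34, guides a phosphatase to eIF2 and so ends the response. It was dim and, unlike most of the group, not lower. One probe set gave 68.7 and 63.4 untreated and 97.8 and 72.0 with TGF-beta, and the other 44.5, 51.5, 51.5 and 56.5 in the same order. The groups were apart by 0.07 on the log2 scale on the first and touched on the second. Their log2 differences were 0.35 ± 0.16 and 0.17 ± 0.12 (SE, n = 2 per group), and neither was called. The first probe set's value was 0.13 without TGF-beta array 1 and 0.57 without TGF-beta array 2.

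DDIT4, also known as REDD1, inhibits the growth kinase complex mTORC1. It gave 89.0 and 97.7 on the untreated arrays, and 70.0 and 64.0 on the others. The groups did not overlap, with a gap of 0.35 beside 0.14 and 0.13 within them. It stood at 71.8% of its untreated level (log2 difference -0.48 ± 0.11, SE, n = 2 per group) and was not called. These intensities are as low as those of PPP1R15A's brighter probe set, and with an offset of 16 before log2 the value was -0.40.

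CHAC1 is an enzyme that breaks down glutathione and a target of the ATF4 and DDIT3 branch, and its promoter window is the one printed above. Intensities were 67.7 and 76.2 on the arrays of untreated cells and 53.2 and 55.0 with TGF-beta. These low intensities did not overlap between groups, the gap being 0.30 on the log2 scale. CHAC1 stood at 75.3% of its untreated level (-0.41 ± 0.11, SE, n = 2 per group), without a call.

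STC2, stanniocalcin 2, is a secreted glycoprotein induced under endoplasmic reticulum stress and low oxygen. Its brighter probe set read 194 and 214 in the untreated group and 110 and 89.8 in the treated group. The groups were apart by 0.82 on the log2 scale, beside 0.14 and 0.29 within them, and 13 genes had a more negative log2 difference than its -1.04 ± 0.13 (SE, n = 2 per group). Its dimmer probe set gave 58.0, 41.6, 38.7 and 42.7 in the same order of arrays, and there the groups overlapped, with a difference of -0.27 ± 0.17. This second probe set lay near the array median on all arrays, and the mean of both probe sets gave -0.65.

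VLDLR, the very low density lipoprotein receptor, takes up lipoproteins and is induced through ATF4 in liver under stress. It was at 33.4 and 68.7 on the untreated arrays and at 37.8 and 27.4 on the TGF-beta arrays. Untreated array 2 alone was high, and the other three arrays lay below the array median. The SDs of log2 intensity were 0.74 in untreated cells and 0.33 after TGF-beta (n = 2 each). The log2 difference of -0.57 ± 0.31 (SE of the limma fit, n = 2 per group) was not called. This difference was -0.05 without untreated array 2. Without untreated array 1 it was -1.09 and called, but that fit sets the high array alone against the TGF-beta pair, whose spread it assumes for both groups, so nothing is read from the call.

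**Figure D2:**
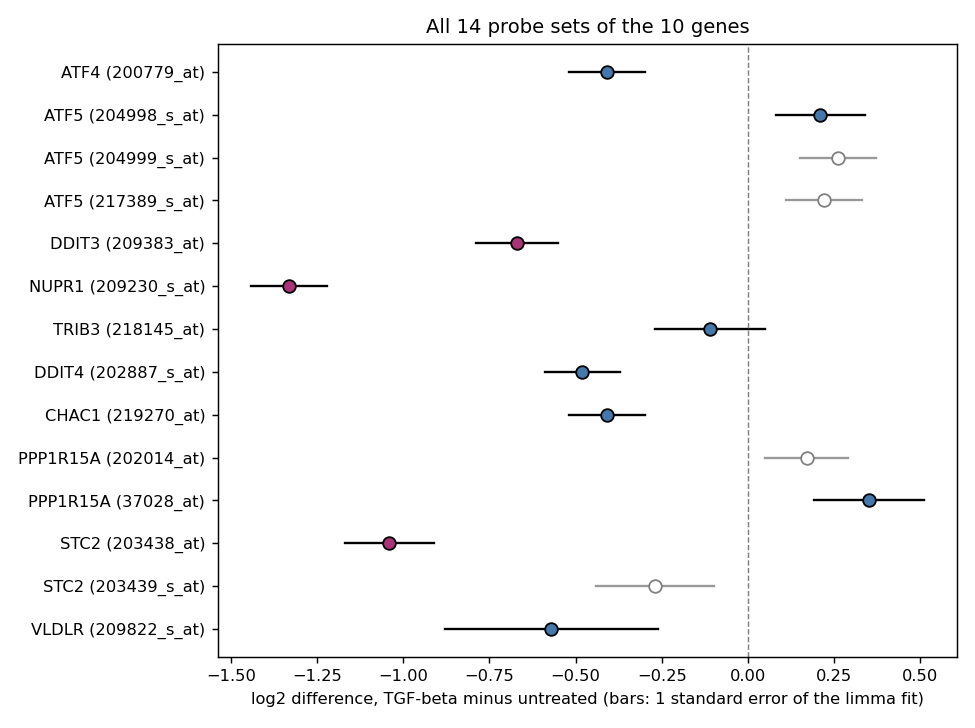
Log2 difference between TGF-beta and untreated arrays for all 14 probe sets of the 10 genes. Bars are 1 standard error of the limma fit, which pulls each spread toward that of all genes. Filled points are each gene's brightest probe set (purple where called, blue where not) and open points the dimmer ones. The called probe sets are those of NUPR1 (-1.33), STC2 (-1.04) and DDIT3 (-0.67), and the second STC2 probe set stands at -0.27.

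NUPR1 and STC2 kept their call in 10 of 12 alternatives each, and ATF4 was called in 2 of 12. The alternatives reuse the arrays from which these genes were proposed, so nothing is read from how often a call was kept. The alternatives that lost the calls of NUPR1 and STC2 were those without a TGF-beta array, in which 0 genes of the whole array were called (limma; 1326 and 1563 genes at an unadjusted p under 0.05). The signs of 9 of the 10 genes were those reported in every alternative that could be computed, TRIB3 being the exception. Much of this was fixed in advance. An intensity trend, a replicate block or a filter on dim genes leaves a gene's log2 difference as it was. So does the mean of all probe sets for a gene that has only 1, such as NUPR1 or ATF4. Leaving out an array cannot change the sign of a gene whose groups do not overlap.

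**Figure D3:**
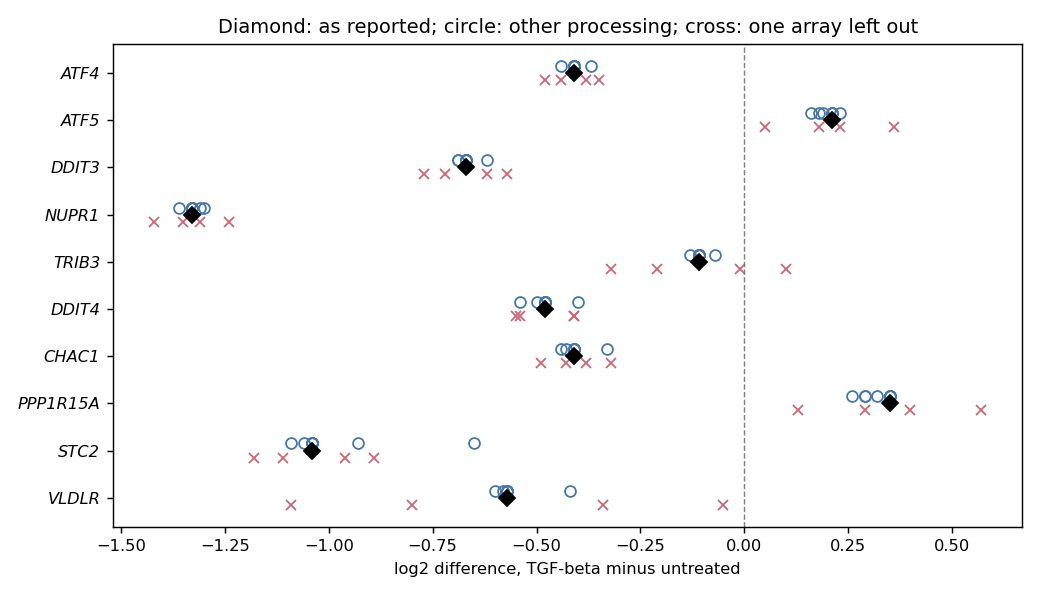
Log2 difference of each gene as reported (diamond), under other processing of all 4 arrays (circles) and with 1 array left out (crosses). NUPR1 stays between -1.42 and -1.24, while VLDLR runs from -1.09 to -0.05 and TRIB3 from -0.32 to 0.10.

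The wider pathway was read from 9 lists that leave out the 10 genes, with 113 of 130 genes measured. In these lists 6 genes were called lower, 3 were called higher and 104 did not pass, beside 0.567% of all genes called lower and 0.658% called higher. The lists were written with earlier results of these arrays known, so nothing is read from that count. Of the 113 genes, 57 had a negative and 56 a positive log2 difference, with a median of -0.003. At an unadjusted p under 0.05, 8.60% of all genes were lower and 9.35% higher, the shares to read beside such counts below. The measured kinases that act on eIF2, eIF2 itself, its exchange factor and DNAJC3 had 0 calls among 10 (limma; 0 at an unadjusted p under 0.05). Their median was 0.046. EIF2AK4, another eIF2 kinase, and PPP1R15B, of the phosphatase, were in this list but were not measured. The member with the smallest p was EIF2AK1, the heme-regulated kinase, at -0.25 (adjusted p = 0.281). EIF2AK3, or PERK, the kinase of the endoplasmic reticulum, stood at 0.02 ± 0.19 (SE, n = 2 per group).

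Of 18 transcription factors that pair with ATF4 or act in related stress responses, 2 were called higher, MAFF and CEBPD. MAFF, a small MAF protein that pairs with stress factors of the NRF family, went from 209 and 281 to 554 and 556 (log2 difference 1.20 ± 0.15, SE, limma adjusted p = 0.0256). CEBPD, a C/EBP protein, stood at 0.83 ± 0.12 (adjusted p = 0.0371). Of this list's genes whose promoter letters are printed, CEBPG was at -0.46 (adjusted p = 0.0975) and ATF3 at -0.38 (adjusted p = 0.194), and neither passed. They were the 2 genes of the list that were lower at an unadjusted p under 0.05 (limma). By that measure 7 were higher, MAFF and CEBPD among them. The list as a whole had a median of 0.068.

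Enzymes of amino acid and one-carbon metabolism, classical ATF4 targets, had a median of -0.575, and 4 of 11 were called lower. ASNS went from 5216 and 4882 to 2149 and 2265 (adjusted p = 0.0101). The 3 others were CTH, which makes cysteine, at -0.95 (adjusted p = 0.0256), and PHGDH and PSAT1, which make serine, at -0.81 (adjusted p = 0.0329) and -0.70 (adjusted p = 0.0403). CBS and MTHFD2 of the same list were at -0.63 and -0.57 and did not pass (limma adjusted p = 0.0549 and 0.0558), though their groups did not overlap. PSPH, the last enzyme of serine synthesis, and SHMT2, which turns serine into glycine, were at -0.03 and -0.02 with overlapping groups. At an unadjusted p under 0.05, 6 of the 11 were lower and 1 was higher (limma). Several of these genes were already known from earlier results of these arrays, so their direction is not independent evidence.

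Among 11 amino acid transporters SLC7A11, the cystine carrier, fell by 1.07 on the log2 scale (adjusted p = 0.0193) and 10 did not pass, with a median of -0.025. Among 18 aminoacyl-tRNA synthetases, which load amino acids onto tRNA, SARS1 (the seryl enzyme) fell from 1799 and 1713 to 1136 and 1119, a log2 difference of -0.64 ± 0.10 (SE, n = 2 per group, adjusted p = 0.0403). The other 17 did not pass, among them EPRS1 at -0.57 (limma adjusted p = 0.0553). AARS1, whose promoter letters are printed, was at -0.15 (adjusted p = 0.605). At an unadjusted p under 0.05, 6 of the 18 were lower, SARS1 among them, and 1 was higher (limma). Both TGF-beta arrays lay below both untreated arrays in 10 of the 18, beside 25.9% of all genes, and the median was -0.166.

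Genes of mTORC1 control and autophagy, the setting of DDIT4, had 0 calls among 11 (limma; 5 lower and 1 higher at an unadjusted p under 0.05, beside 8.60% and 9.35% of all genes), with -0.235 as their median. GABARAPL1, an autophagosome protein, had the smallest p (-0.47 ± 0.11, SE, adjusted p = 0.0762). Of 12 secreted products and death-related targets, GDF15, a stress-induced cytokine, rose by 0.60 on the log2 scale (adjusted p = 0.0470), from 446 and 429 to 661 and 667. The direction of GDF15 is opposite to that of STC2, the secreted gene described above. PMAIP1 had the most negative difference of this list, -0.77 ± 0.17 (SE, limma adjusted p = 0.0722), and did not pass. The list's median was 0.04, with 2 genes lower and 1 higher at an unadjusted p under 0.05 (limma).

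Endoplasmic reticulum chaperones, which answer mainly to ATF6 and XBP1 and less to ATF4, had 0 calls among 15 (limma; 0 lower and 4 higher at an unadjusted p under 0.05, beside the same shares of all genes). Their median was 0.075, and SDF2L1 had the smallest p at 0.60 (adjusted p = 0.0541). HSPA5 (BiP), the main chaperone, stood at 0.28 (adjusted p = 0.250), while DDIT3, which several arms of the endoplasmic reticulum stress response induce, was among the genes called lower.

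**Figure D4:**
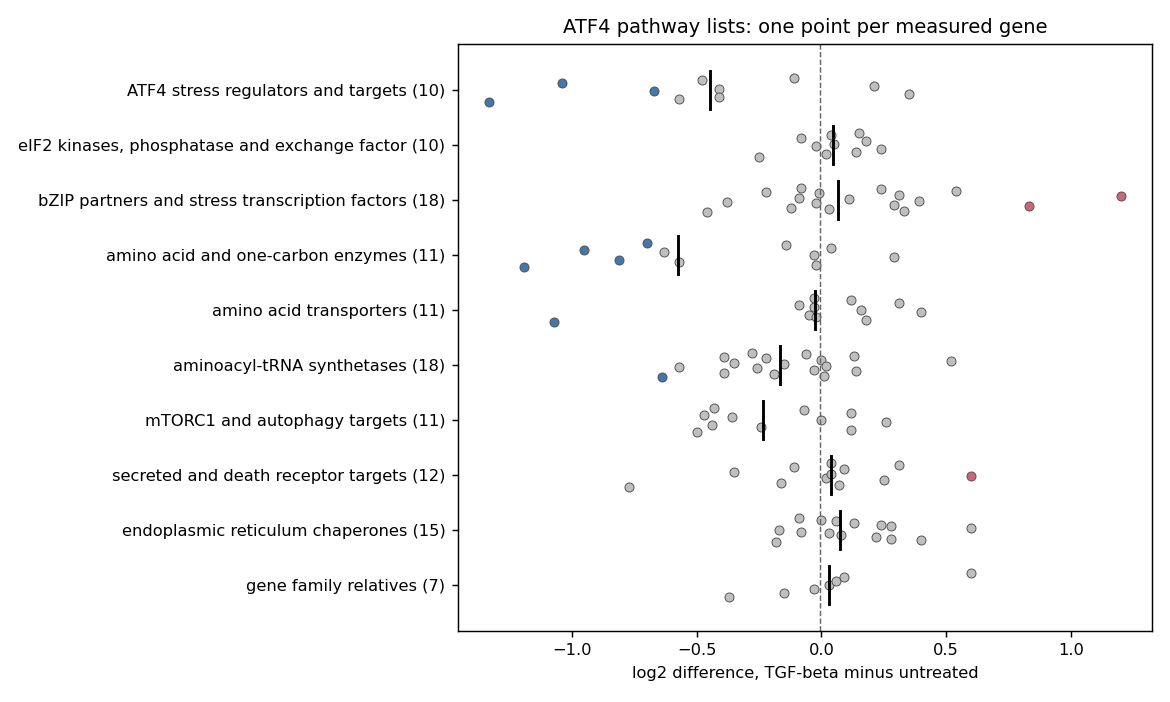
Log2 difference of each measured gene in the group of 10 and in 9 lists of the wider pathway, with the number measured in brackets. Blue points were called lower, red higher and grey not called, the bar is the list's median, and the dashed line is the median of all genes at -0.006. The enzyme list, with a median of -0.575, is the one whose median lies nearest to that of the group of 10.

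Of the relatives of these genes, 7 of 12 were measured and 0 were called (limma; 1 lower and 1 higher at an unadjusted p under 0.05). TRIB1, a relative of TRIB3, had intensities of 74.2 and 95.1, then 114 and 142 with TGF-beta (0.60 ± 0.16, SE, adjusted p = 0.110), while TRIB2, the other relative, was dim and overlapped between groups (-0.15 ± 0.19). STC1, the relative of STC2, was dim and stood at 0.09 ± 0.13, and LRP8, a receptor close to VLDLR, at 0.06 ± 0.16. ATF2 was at -0.37 (adjusted p = 0.140), and the dim ATF6B and ATF7 were at -0.03 ± 0.14 and 0.03 ± 0.11.

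The promoter motif was set beside the differences. Of the 104 other pathway genes with a window, 21.2% held it, against 3.44% of all measured genes with a window. The largest shares were those of the transporters, 5 of 10, and of the tRNA synthetases, 7 of 16. The smallest were those of the endoplasmic reticulum chaperones, 0 of 16, and of the relatives, 0 of 7. The 20 measured pathway genes with the motif had a median log2 difference of -0.063 and 1 call, ASNS, and the 72 with a window and no motif had a median of 0.026, with 4 called lower and 2 higher. Over all genes with a window, the 334 with the motif had a median of -0.032 and 3 calls, all lower, which is 0.898% beside 0.597% of the 9711 genes with a window. These shares were not tested.

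Levels of most markers of other cell types were low. PTPRC, which marks leukocytes, lay between 28.3 and 31.7 on the 4 arrays, and the 3 endothelial markers summed to 100.2 to 101.7 in untreated cells and 87.7 to 98.9 after TGF-beta. The 4 leukocyte markers summed to 170.6 to 179.5 and 241.6 to 258.9, a difference that came with CD14, at 75.6 and 75.4 against 146 and 157. CD14 lay above the array median on all 4 arrays and was called higher (log2 difference 1.0, limma adjusted p = 0.0167). The 4 fibroblast markers, all at or near the array median, summed to 189 to 221 and 157 to 172, and the 8 hepatocyte markers to 84852 to 87626 and 91239 to 93487. That last sum is carried by ALB and AFP, and within it APOA1 rose by 0.74 (limma adjusted p = 0.0378) and TTR fell by 0.63 on the log2 scale (limma adjusted p = 0.0470). The part of these shifts in the differences of the 10 genes was not tested.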

How the data were processed

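RNA of 4 samples of Huh-7 cells, 2 untreated and 2 given TGF-beta, was measured on Affymetrix arrays. The authors deposited linear intensities, 1 for each probe set and array, with near-equal quartiles, and they were used without further scaling. Per the submitters' processing notes the affy package was used, with settings not given in the sources used here. Arrays have no read depth, and their number limits the precision.

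Names came from the platform annotation, which can be old, with symbols updated by Entrez number through RefSeq (GRCh38.p14). A single gene was named by 19724 of 22215 probe sets (19707 with a current symbol), several genes by 568, and none by 1923. Intensities were taken to log2 with no offset. Each gene was represented by its brightest probe set, and TGF-beta was compared with untreated cells by limma 3.58.1 (R 4.3.3, lmFit and eBayes, 7.41 degrees of freedom) with Benjamini-Hochberg adjustment over 12165 genes. Dimmer probe sets took their values from the same fit over 19724 probe sets. The procedure was tested on simulated data.

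The members and the lists were chosen with earlier results of these data known. Named genes are all members with all probe sets, up to 4 called genes of each list or its gene with the smallest p, and the relatives. EIF2AK3, CEBPG, ATF3, AARS1, EPRS1, PSPH, SHMT2, CBS, MTHFD2, PMAIP1 and HSPA5 fall outside this rule and were chosen after their values were seen. DNAJC3, EIF2AK4 and PPP1R15B are named to say what a list held. Alternatives were quantile normalization, median centring, an offset of 16, a filter on dim genes, other uses of probe sets, an intensity trend, a replicate block and leaving out each array.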

Additional observations from a re-analysis of the deposited data

How the results depend on the processing

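The counts of called genes changed with the processing and with the arrays kept. Over all genes, 80 were called higher and 69 lower. These became 32 and 30 under quantile normalization, 48 and 44 without dim genes, 308 and 308 with an intensity trend, and 0 to 324 and 0 to 199 with 1 array left out. Of the 10 genes 3 were called lower, with 0 to 3 when 1 array was left out. Of the other pathway genes 3 were called higher, with 1 under quantile normalization, 5 with an intensity trend and 0 to 5 with 1 array left out, and 6 were called lower, with 17 under an intensity trend and 0 to 9 with 1 array left out. With either TGF-beta array left out, 0 genes were called. Each fit without an array leaves 1 in its group, which is assumed to vary like the other group.

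The labels number the arrays 1 and 2 in both groups, but with 2 pairs and a correlation of 0.00966 between the deviations of same-numbered arrays, the numbers do not show a pairing. With the number as a replicate block, 686 genes were called higher and 543 lower, among them 7 of the 10 genes lower and 10 and 16 of the other pathway genes.

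Of the values of single genes, that of STC2 moved by more than the spread between arrays, to -0.65 with the mean of its probe sets. No call changed direction. ATF5, CHAC1 and VLDLR have no value without dim genes, since the filter removes them. Low intensity limits ATF5, PPP1R15A, DDIT4, CHAC1, VLDLR and the second STC2 probe set.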
